A study of Homo sapiens with 2 samples.

Results

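The core circadian clock was examined here as 10 genes chosen by name: the activators CLOCK and BMAL1, the repressors PER1, PER2, PER3, CRY1 and CRY2, the nuclear receptors NR1D1 and NR1D2, and the output factor DBP. They are 10 of the 20033 protein-coding genes of the RefSeq annotation, and each was found under its own symbol. A peak was assigned to a gene when it overlapped the gene or the 20 kb on either side of it. The 10 windows held 57 of the 61717 peaks of the RUNX2 list and 48 of the 42698 peaks of the MTA1 list.

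The lists came from 2 CUT&Tag libraries of MDA-MB-231, an established triple-negative breast cancer line, made with an antibody against RUNX2 or against MTA1. RUNX2 is a DNA-binding transcription factor of bone development, and MTA1 belongs to NuRD, a complex that remodels chromatin and removes histone acetylation; in CUT&Tag the antibody tethers a transposase that tags nearby DNA for sequencing. For both libraries the cells were grown in DMEM with fetal bovine serum, and the sources give no treatment or genetic change, nor any synchronisation or hour of collection, so every value refers to clock genes at an unknown phase. There was 1 library per antibody and no control library was analysed here, so no value has a replicate, and the 95% intervals cover counting error over peaks only.

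The clock is a feedback loop of transcription. CLOCK and BMAL1 form a heterodimer that binds E-boxes and activates the PER, CRY, NR1D1, NR1D2 and DBP genes; the PER and CRY proteins return to the nucleus and repress the heterodimer. NR1D1 and NR1D2, also called REV-ERB alpha and beta, are receptors that repress BMAL1, and DBP carries the rhythm to genes with D-boxes.

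The promoter sequences are shown first. Searched motifs are marked in them as letters. Under the start peaks of CLOCK, PER2, CRY1 and NR1D1 lay only the variant E-box CACGTT, which was added after the sequences had been seen. Under those of PER1 and BMAL1 lay only the receptor motif AGGTCA. Some peaks covered all 250 bases before a start, and no share over all genes is given. A motif under a start peak is therefore not read as a trait of the clock genes. RefSeq starts of build GRCh38.p14 were listed for all 10 genes, 15 starts in all, since CLOCK, BMAL1, PER3, CRY2 and NR1D2 have 2 each. The following runs are the 250 bases before the outermost start, read 5′ to 3′ along the gene, and capitals mark the motifs found on either strand. PER1 is shown for its E-box and receptor motif, PER3 for its D-box, and CRY1 and NR1D1 for variant E-boxes in runs that peaks of both lists covered whole. The outermost CLOCK run was covered whole as well, but held none of the motifs, and is not printed.
PER1 promoter, chr17:8152405-8152654, minus strand: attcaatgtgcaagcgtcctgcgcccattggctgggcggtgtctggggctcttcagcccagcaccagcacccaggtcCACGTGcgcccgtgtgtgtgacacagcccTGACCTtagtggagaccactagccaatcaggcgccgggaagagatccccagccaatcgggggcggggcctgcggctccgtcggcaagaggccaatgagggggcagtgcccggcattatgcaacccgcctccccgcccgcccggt
PER3 promoter, chr1:7784041-7784290, plus strand: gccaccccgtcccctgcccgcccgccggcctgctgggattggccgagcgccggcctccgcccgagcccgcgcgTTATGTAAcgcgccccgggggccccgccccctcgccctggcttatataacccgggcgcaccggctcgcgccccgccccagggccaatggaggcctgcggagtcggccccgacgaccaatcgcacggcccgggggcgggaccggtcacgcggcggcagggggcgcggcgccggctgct
CRY1 promoter, chr12:107093550-107093799, minus strand: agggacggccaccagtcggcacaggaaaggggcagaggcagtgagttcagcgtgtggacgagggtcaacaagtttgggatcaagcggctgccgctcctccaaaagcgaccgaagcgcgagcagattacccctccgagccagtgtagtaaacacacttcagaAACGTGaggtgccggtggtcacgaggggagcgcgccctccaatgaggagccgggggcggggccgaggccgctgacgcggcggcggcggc
NR1D1 promoter, chr17:40100590-40100839, minus strand: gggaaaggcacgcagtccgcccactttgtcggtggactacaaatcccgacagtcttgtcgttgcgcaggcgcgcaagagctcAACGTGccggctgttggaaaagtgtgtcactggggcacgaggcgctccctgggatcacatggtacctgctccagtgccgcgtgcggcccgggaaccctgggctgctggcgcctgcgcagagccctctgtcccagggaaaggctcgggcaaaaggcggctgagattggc

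The 30-base sites that follow are those of the remaining genes that lay under a listed peak, with the motif in capitals. In CLOCK, BMAL1, CRY2 and NR1D2 they belong to the second listed start.
NR1D2 E-box, upstream copy, chr3:23945954-23945983, plus strand: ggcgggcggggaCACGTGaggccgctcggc
NR1D2 E-box, copy nearer the start, chr3:23946004-23946033, plus strand: gggccgcagggaCACGTGggggcgggggcg
NR1D2 D-box, opposite strand, chr3:23945916-23945945, plus strand: gtgacgcggcaTTACATAAtgggcgctgag
CLOCK variant E-box, chr4:55546102-55546131, minus strand: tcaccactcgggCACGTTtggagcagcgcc
PER2 variant E-box, chr2:238288790-238288819, minus strand: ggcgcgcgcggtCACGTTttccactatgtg
CRY2 variant E-box, opposite strand, chr11:45847275-45847304, plus strand: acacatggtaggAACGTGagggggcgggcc
CRY2 receptor motif, chr11:45847399-45847428, plus strand: ttgcggcgtcatAGGTCActgggcgggcta
BMAL1 receptor motif, chr11:13277809-13277838, plus strand: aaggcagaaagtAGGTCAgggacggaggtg

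The motifs searched on both strands of the 300 bases from 250 before to 50 after each start were the E-box CACGTG, its variant CACGTT, the D-box TTATGTAA, the nuclear receptor motif AGGTCA, and the RUNX letters TGTGGT and TGCGGT. No match of one motif in these genes shared bases with a match of another. The E-box was found in PER1 and, as 2 copies, in NR1D2, beside 8.34% of the 22198 listed promoters. The D-box was found in PER3 and NR1D2, beside 0.667% of promoters. Of promoters with a RUNX2 peak, 10.1% held the E-box and 0.359% the D-box, and of those with an MTA1 peak 10.1% and 0.301%. These shares and those that follow are per promoter, whereas 5 of the 10 genes have 2 listed promoters. The E-box and its variant each contain a CpG, and the clock promoters were rich in CpG, as given below. No share over promoters of similar CpG count is given, so the counts cannot be separated from base composition.

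The variant E-box, which was added to the search after the sequences had been seen, was found in CLOCK, PER2, CRY1, CRY2 and NR1D1, beside 5.43% of promoters. It was in 5.95% of promoters with a RUNX2 peak and 6.23% of those with an MTA1 peak. None of these shares is matched for CpG count, so the 5 genes are not read as an excess. All 5 copies lay under peaks of both lists. In CRY1, CRY2 and NR1D1 those peaks covered all 250 bases before the start, so any letters there would lie under them. The position of the copies under peaks is therefore not read as a property of the motif. The receptor motif was found in BMAL1, PER1 and CRY2, beside 11.9% of promoters, 9.68% of those with a RUNX2 peak and 9.34% of those with an MTA1 peak. As for the RUNX letters, TGCGGT was in none of the 10 genes (8.54% of promoters, 11.4% with a RUNX2 peak and 10.7% with an MTA1 peak). TGTGGT (11.3% of promoters, 9.79% with a RUNX2 peak and 8.75% with an MTA1 peak) was only in the window of the first BMAL1 start, where no peak was listed. A match is a description of letters and was not tested as a binding site.

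All 10 genes had a peak of each list in their windows, which is a common state: 84.4% of protein-coding genes had a RUNX2 peak by the same rule, 79.7% an MTA1 peak and 76.9% both. At the starts the rule was narrower, a peak overlapping the 1 kb on either side of a listed start. Here RUNX2 had a peak in 10 of 10 clock genes, beside 52.1% of the 15842 genes with a listed start. MTA1 had one in 9 of 10, beside 53.9%, and 9 of 10 had both, beside 46.9%.

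The exception was PER1, whose nearest MTA1 peak was centred at -2006 bp from the start, where negative distances are upstream. The clock promoters were also rich in CpG: each gene had a listed promoter with at least the median of 21 CpGs per 300 bases, and the highest, that of PER2, held 60. Among the 9420 genes that share this property, a comparison chosen after seeing the data, 69.4% had a RUNX2 start peak, 71.9% an MTA1 start peak and 63.9% both. The counts of 10 and 9 clock genes are to be read against these shares as well as against those over all genes, and no test was made.

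**Figure D1:**
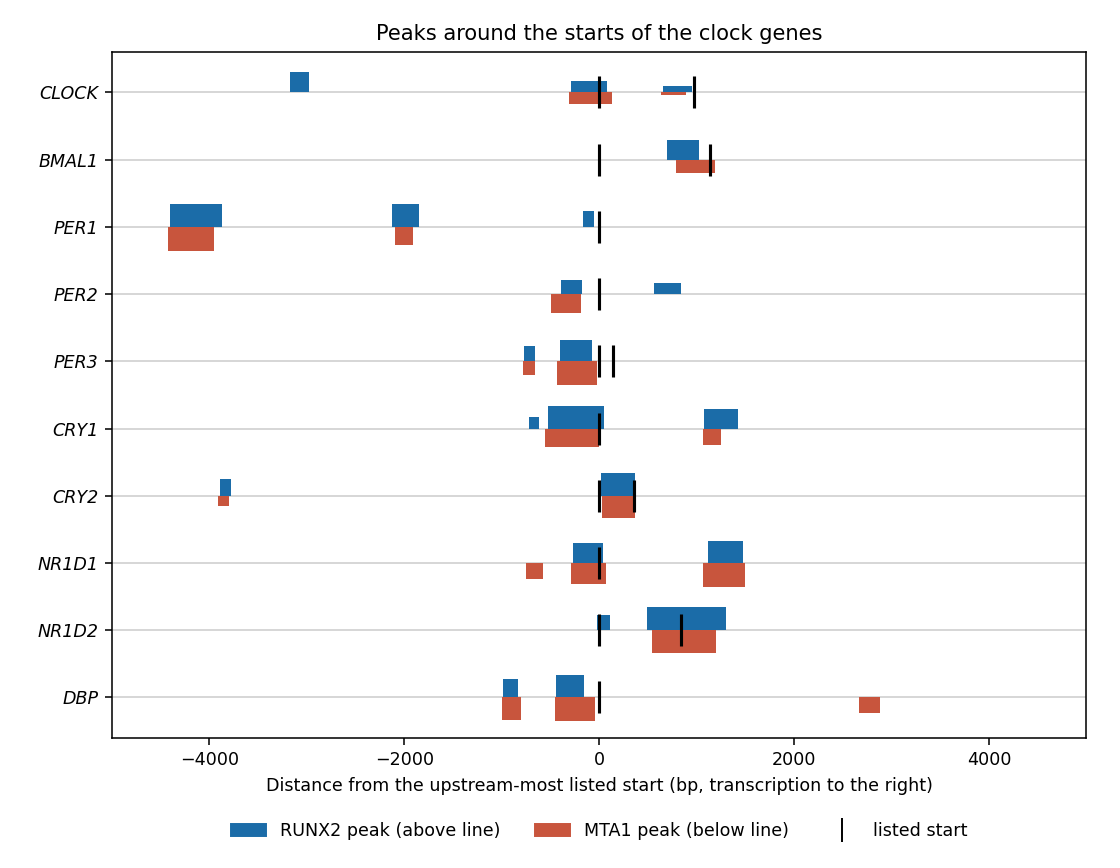
Peaks within 5 kb of the outermost listed start of each clock gene, drawn in the direction of transcription, with RUNX2 above and MTA1 below each line; box height grows with the score rank of the peak within its own list. RUNX2 and MTA1 boxes lie opposite each other at the starts of 9 genes, while at the PER1 start a RUNX2 box stands alone and the tallest pair lies upstream, centred at -4138 bp for RUNX2 and -4190 bp for MTA1.

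Peaks are compared between the lists only by score rank, the percentage of peaks in the same list with a lower score, because the scale of the authors' score is not stated. The strongest start peak of the clock genes had a median rank of 83.4 for RUNX2 and 86.2 for MTA1. Over all genes with a start peak the medians were 72.0 and 76.4. The clock genes did not sit together, however, and ranged from 41.0 to 93.8 for RUNX2 and from 43.4 to 96.8 for MTA1. The strongest start peak was centred upstream of its start in 9 of 10 genes for RUNX2 and in 8 of 9 for MTA1, against 73.9% and 76.5% over all genes with a start peak.

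CLOCK, the partner of BMAL1 in the activator, had the weakest start peaks of the 10 genes. Its first start carried a RUNX2 peak at chr4:55546831-55547202 with a score of 5.53 (rank 41.0) and an MTA1 peak at chr4:55546778-55547219 with a score of 6.83 (rank 43.4). The second start carried a weaker overlapping pair, at rank 19.0 for RUNX2 and 1.30 for MTA1, which covered the variant E-box. A noncoding gene, LOC124900704, starts within 1 kb of these peaks, so they cannot be assigned to CLOCK alone.

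The stronger CLOCK peaks lay away from the start. An upstream RUNX2 peak at -3074 bp had a rank of 83.7 and no MTA1 peak over it. Inside the gene, 76988 bp past the start, an overlapping pair had a RUNX2 rank of 70.9 and an MTA1 rank of 88.3. A second inside pair, at 99778 bp, showed the opposite order, with a RUNX2 rank of 78.6 and an MTA1 rank of 24.4. In all, CLOCK held 7 RUNX2 and 6 MTA1 peaks, 4 of each overlapping, beside 45.4% and 65.5% of the whole lists. Its MTA1 peaks without overlap, at 32677 and -6656 bp, both had a rank of 19.2.

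BMAL1, the DNA-binding partner of CLOCK and the target of the NR1D receptors, had its start peaks at the second listed start. The RUNX2 peak, chr11:13277352-13277679, had a score of 12.9 (rank 76.7), and the MTA1 peak, chr11:13277436-13277842, a score of 7.44 (rank 48.3). The first start of the gene had no peak over its 250 upstream bases in either list. The MTA1 peak reached past the second start to the receptor motif printed above, and the RUNX2 peak ended before it.

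BMAL1 had the most RUNX2 peaks of the 10 genes, 9, against 5 MTA1 peaks. Of the RUNX2 peaks 7 lay inside the gene. Of the 9, 4 overlapped an MTA1 peak, near the 45.4% of the whole RUNX2 list. The 5 without an MTA1 peak over them had ranks of 2.26 to 62.1. Where the lists overlapped inside the gene, the pairs had ranks of 70.6 and 75.3 for RUNX2 and MTA1 at 60826 bp, and of 47.3 and 60.4 at 90446 bp. An upstream pair at -14884 bp had ranks of 54.2 and 74.9. At the other overlapping places of BMAL1 the MTA1 rank was thus the higher one, and at its start the lower one.

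PER1, a period repressor known for rapid induction, was the gene without an MTA1 peak at its start. At its start a RUNX2 peak of 114 bp, chr17:8152454-8152567, had a score of 8.55 (rank 62.3) and no MTA1 peak over it. It covered the receptor motif and stopped short of the E-box, which was under no peak. Further upstream, at chr17:8156275-8156809, RUNX2 had a score of 35.0 (rank 95.8), with an MTA1 peak at chr17:8156357-8156831 of score 40.0 (rank 98.1).

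A second upstream pair lay nearer the start, at chr17:8154252-8154530 for RUNX2 (score 32.7) and chr17:8154319-8154500 for MTA1 (score 11.4, rank 70.3). The high RUNX2 scores assigned to PER1 thus lay at -1987 and -4138 bp and not at the listed start. Downstream of the gene were 5 RUNX2 and 2 MTA1 peaks, the strongest pair at ranks of 63.8 and 85.0. One of these RUNX2 peaks, rank 18.8, lay within 1 kb of a start of HES7, a Notch-pathway repressor. With 8 RUNX2 and 5 MTA1 peaks in a short window, PER1 had 1.54 and 0.963 peaks per 10 kb, more than 98.8% and 93.4% of protein-coding genes.

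PER2, a period repressor whose promoter is known for the variant E-box, had 5 RUNX2 and 2 MTA1 peaks. The peak over that element had a RUNX2 score of 6.79 (rank 51.0) at chr2:238288787-238289001 and an MTA1 score of 13.4 (rank 75.9) at chr2:238288797-238289108. A further RUNX2 peak past the start, rank 40.8, lay by the start of the noncoding gene LOC112268433 and had no MTA1 peak over it. The start of LOC112268433 was also within 1 kb of the pair over the variant E-box, so that pair cannot be assigned to PER2 alone. Of 5 RUNX2 peaks in the window 3 had ranks of 0 to 13.8, and at rank 0 no peak of the list has a lower score. Both MTA1 peaks overlapped a RUNX2 peak, beside 65.5% of the whole MTA1 list.

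PER3, the third period gene, had the strongest start peak of the family in both lists. The RUNX2 peak, chr1:7783886-7784212, had a score of 18.9 (rank 86.0), and the MTA1 peak, chr1:7783854-7784268, a score of 31.4 (rank 95.8). Both covered the D-box printed above. A narrow pair lay further upstream at -714 bp, with ranks of 59.4 for RUNX2 and 49.05 for MTA1, and an inside pair at 26176 bp had ranks of 69.9 and 81.2. All 3 MTA1 peaks of PER3 overlapped a RUNX2 peak, beside 65.5% of the whole MTA1 list.

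CRY1, a cryptochrome that silences CLOCK and BMAL1, had one of the strongest RUNX2 start peaks. It spanned 569 bp at chr12:107093504-107094072 with a score of 28.7 (rank 93.3), while the MTA1 peak of 558 bp at chr12:107093550-107094107 had a score of 12.2 (rank 72.6). The peaks were nearly the same in extent and stood apart in rank. Just inside the gene, at 1250 bp, another pair showed the same order, with ranks of 79.8 for RUNX2 and 63.0 for MTA1. The pair past the end of CRY1, at ranks of 72.8 and 77.0, lay on the start of MTERF2, a mitochondrial transcription factor gene. The peaks of CRY1 without overlap were a RUNX2 peak at -669 bp, rank 42.0, and an MTA1 peak inside the gene at 65810 bp, rank 30.5.

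CRY2, its paralog, had start peaks that were close in rank and extent. RUNX2 had a score of 26.9 (rank 92.4) at chr11:45847137-45847490 and MTA1 a score of 23.6 (rank 91.3) at chr11:45847144-45847486. These peaks covered the variant E-box and the receptor motif before the second start, whereas the receptor motif before the first start, chr11:45847056-45847061, was under no peak. An inside pair of CRY2 at 25540 bp had ranks of 57.7 for RUNX2 and 54.3 for MTA1. Its flanking pairs differed in order: upstream, at -3832 bp, the ranks were 67.2 for RUNX2 and 34.9 for MTA1, and downstream, at 52440 bp, they were 61.9 and 83.6.

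NR1D1, the REV-ERB alpha gene, had more MTA1 than RUNX2 peaks, 9 against 5. Its start peaks covered the whole 250-base run, with a RUNX2 score of 15.1 (rank 80.8) at chr17:40100546-40100862 and an MTA1 score of 18.8 (rank 86.2) at chr17:40100520-40100874. The strongest MTA1 peak was inside the gene at chr17:40099092-40099522, with a score of 42.8 (rank 98.5), over a RUNX2 peak at chr17:40099116-40099476 of score 25.7 (rank 91.7). This inside pair was centred 1293 bp past the start for RUNX2, and it outranked the start pair in both lists.

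Upstream of NR1D1 the lists differed in detail. A RUNX2 peak of 530 bp at -11052 bp, rank 93.4, was matched by 2 MTA1 peaks, with ranks of 5.87 and 73.1. All 5 RUNX2 peaks of NR1D1 overlapped an MTA1 peak, beside 45.4% of the whole RUNX2 list. Of its 9 MTA1 peaks 6 overlapped a RUNX2 peak, near the 65.5% of the whole MTA1 list. The 3 MTA1 peaks of NR1D1 without overlap had ranks of 24.0, 36.3 and 60.2. Its density of MTA1 peaks, 1.88 per 10 kb, was higher than in 99.9% of protein-coding genes, and that of RUNX2 peaks, 1.05 per 10 kb, higher than in 92.4%.

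NR1D2, the REV-ERB beta gene, had the fewest RUNX2 peaks of the 10 genes, 3, and 2 MTA1 peaks. The peak on the second start spanned 814 bp for RUNX2, chr3:23945774-23946587, with a score of 29.6 (rank 93.8), and 662 bp for MTA1, chr3:23945824-23946485, with a score of 27.8 (rank 94.2). Both E-boxes and the D-box lay under it in both lists. An inside pair, 13236 bp past a start, was as high, with ranks of 94.1 for RUNX2 at chr3:23959103-23959612 and 93.4 for MTA1 at chr3:23959127-23959629. The remaining RUNX2 peak, on the first start at chr3:23945265-23945398, had a rank of 58.2 and no MTA1 peak over it. The noncoding gene LOC124909354 starts within 1 kb of the NR1D2 start peaks.

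DBP, the PAR bZIP factor of clock output, had the highest MTA1 rank at a start. Its MTA1 peak at chr19:48637419-48637830 had a score of 34.4 (rank 96.8) and its RUNX2 peak at chr19:48637540-48637819 a score of 28.1 (rank 93.1). A second pair at -910 bp had ranks of 71.5 for RUNX2 and 93.6 for MTA1. An MTA1 peak inside the gene at 2776 bp, rank 61.2, had no RUNX2 peak over it. None of the 6 motifs was found in the DBP promoter window.

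The strongest pair assigned to DBP lay downstream of the gene, at ranks of 97.8 for RUNX2 and 99.5 for MTA1, on the starts of RPL18, a ribosomal protein gene, and SPHK2, a sphingosine kinase gene. A weaker downstream pair, at ranks of 48.1 and 51.5, lay within 1 kb of another SPHK2 start. Over all 10 genes, 10 RUNX2 and 7 MTA1 peaks lay within 1 kb of a start of another gene. DBP had 1.48 RUNX2 and 1.69 MTA1 peaks per 10 kb, above 98.5% and 99.6% of protein-coding genes.

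**Figure D2:**
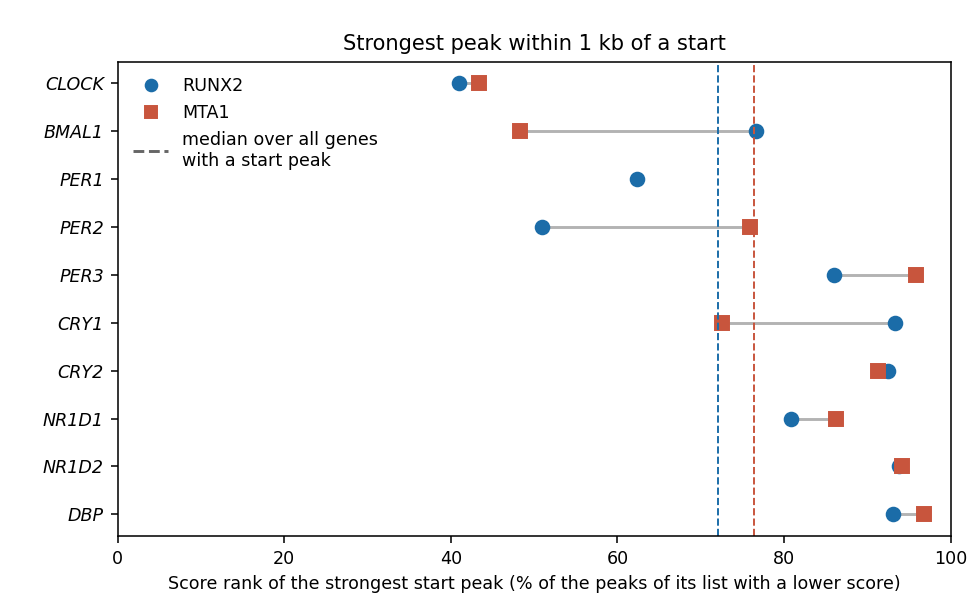
Score rank of the strongest peak within 1 kb of a start for each clock gene (circles RUNX2, squares MTA1), with the median over all genes that have a start peak as dashed lines at 72.0 for RUNX2 and 76.4 for MTA1. CLOCK lies far below both lines, PER3, CRY2, NR1D1, NR1D2 and DBP lie above both, and BMAL1, PER2 and CRY1 have the widest gaps between the lists.

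Set side by side, the start ranks gave an order for RUNX2 of NR1D2, CRY1, DBP, CRY2, PER3, NR1D1, BMAL1, PER1, PER2 and CLOCK. The first 4 lay within 92.4 to 93.8 and cannot be ordered from 1 library. For MTA1 the order was DBP, PER3, NR1D2, CRY2, NR1D1, PER2, CRY1, BMAL1 and CLOCK. The MTA1 rank was the higher of the pair in 6 of 9 genes and the lower in BMAL1, CRY1 and CRY2. With no replicate, these gaps have no error against which to be judged.

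Peak numbers partly follow the size of the gene, because a longer gene has a longer window. Per 10 kb of window the clock genes had a median of 0.559 RUNX2 peaks, from 0.281 in CRY1 to 1.54 in PER1, where the median over all protein-coding genes was 0.357. For MTA1 the median was 0.355, from 0.208 in PER2 to 1.88 in NR1D1, where that over all genes was 0.248. The high densities belonged to the short genes PER1, NR1D1 and DBP, whose windows are mostly flank.

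By position, the 57 RUNX2 peaks comprised 16 at starts, 20 inside genes, 11 upstream and 10 downstream. The 48 MTA1 peaks comprised 13 at starts, 14 inside, 13 upstream and 8 downstream. RUNX2 peaks were the more numerous in 7 genes, MTA1 peaks in NR1D1 and DBP, and the numbers were equal in CRY1. The whole RUNX2 list is also the longer of the lists.

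**Figure D3:**
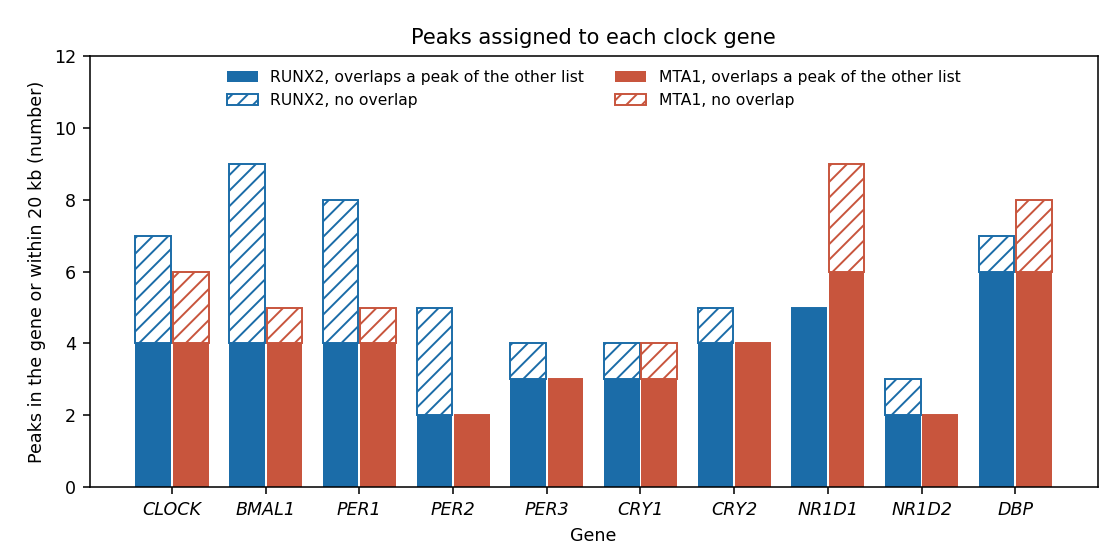
Number of peaks of each list in each clock gene and the 20 kb on either side, with filled bars for peaks that overlap a peak of the other list and hatched bars for peaks that do not. BMAL1 has the most RUNX2 peaks, 9, of which 5 are hatched, and NR1D1 has the most MTA1 peaks, 9, of which 3 are hatched. In the whole lists 45.4% of RUNX2 and 65.5% of MTA1 peaks overlap.

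Overlap between the lists, taken as at least 1 shared bp, was frequent around the clock genes. Of the RUNX2 peaks 37 of 57, or 64.9% (exact Clopper-Pearson 95% interval 51.1 to 77.1), overlapped an MTA1 peak, where the share over the whole list was 45.4%. Of the MTA1 peaks 38 of 48, or 79.2% (65.0 to 89.5), overlapped a RUNX2 peak, where the share over the whole list was 65.5%. Peaks at starts overlapped more often in the whole lists too, so the positions were separated.

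At the starts, 12 of 16 RUNX2 peaks overlapped (75.0%, 47.6 to 92.7), near the 77.4% of all RUNX2 peaks at listed starts. For MTA1 it was 12 of 13 (92.3%, 64.0 to 99.8), with 77.2% over the list inside that interval. Away from every listed start of a protein-coding gene, neighbours included, 22 of 37 RUNX2 peaks overlapped (59.5%, 42.1 to 75.2), beside 39.3% of all such RUNX2 peaks. These clock gene peaks also had a higher median rank, 56.9 against 46.3, and the part of rank in the overlap was not tested. For MTA1 it was 23 of 32 (71.9%, 53.3 to 86.3), beside 62.2%, with median ranks of 60.8 and 44.5. Peaks of 1 gene share their surroundings and are not independent, so these intervals are narrower than the true uncertainty.

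**Figure D4:**
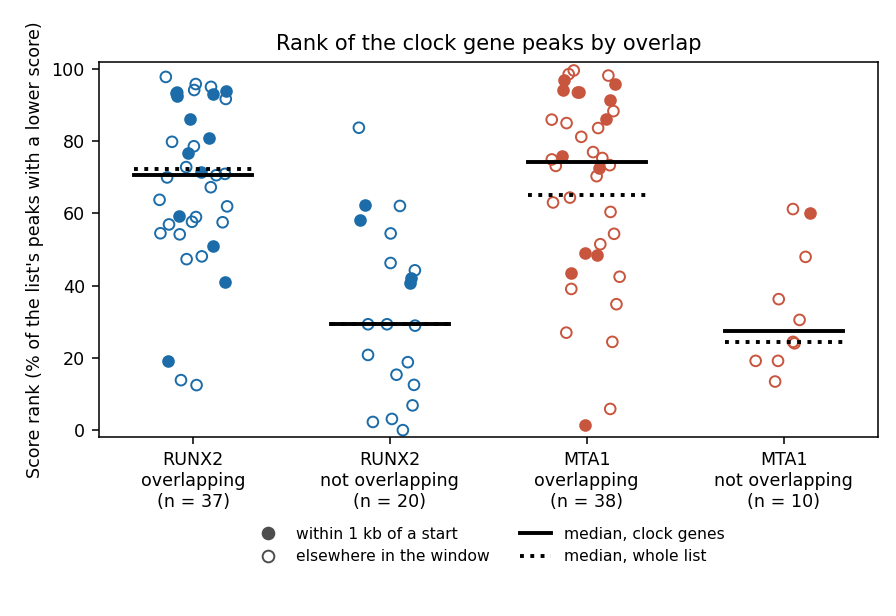
Score rank of every peak in the clock gene windows by list and by overlap with the other list, filled for peaks within 1 kb of a start and open elsewhere, with solid lines at the medians of the clock gene peaks and dotted lines at those of the whole list. Overlapping peaks had median ranks of 70.6 for RUNX2 and 74.1 for MTA1, and peaks without overlap 29.3 and 27.5.

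The peaks that overlapped were the higher-ranked and wider ones, as in the lists as a whole. Overlapping RUNX2 peaks had a median rank of 70.6 and width of 273 bp, and the others 29.3 and 109.5 bp. Overlapping MTA1 peaks had a median rank of 74.1 and width of 259 bp, and the others 27.5 and 124.5 bp. In the whole lists the corresponding median ranks were 72.4 and 29.3 for RUNX2, and 65.2 and 24.4 for MTA1.

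In the highest 10% of scores of their lists were 10 of the RUNX2 peaks (17.5%, 8.75 to 29.9) and 9 of the MTA1 peaks (18.8%, 8.95 to 32.6), and all of these overlapped a peak of the other list. Of all peaks in the highest 10% of scores, 90.6% of RUNX2 and 99.1% of MTA1 peaks did so, so this is the common state of such peaks. The narrowest width that each list holds, 99 bp for RUNX2 and 116 bp for MTA1, was that of 8 RUNX2 peaks (14.0%, 6.26 to 25.8) and 7 MTA1 peaks (14.6%, 6.07 to 27.8) here, beside 31.7% and 26.0% of the lists. Of these, 1 RUNX2 and 2 MTA1 peaks overlapped the other list, beside 12.4% and 28.1% of all peaks of that width.

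The window of 20 kb left some peaks just inside or just outside. Just inside, the far upstream pair of DBP began 19856 bp from the gene for RUNX2 (rank 54.5) and 19885 bp for MTA1 (rank 64.4). Just outside PER1, the nearest peaks lay at 20089 bp for RUNX2 (rank 56.5) and 20083 bp for MTA1 (rank 78.2). Near PER2 they lay at 20323 bp for RUNX2 (rank 55.5) and 20149 bp for MTA1 (rank 21.8). Whether these outside peaks overlap is not given here. Further out, the nearest peaks beyond the NR1D2 window, at 28010 bp for RUNX2 and 28107 bp for MTA1, had ranks of 91.4 and 95.9.

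A list of 18 other clock genes was set beside the 10. All 18 had a RUNX2 peak in the window and 16 an MTA1 peak, beside 84.4% and 79.7% of protein-coding genes. A start was listed for 14 of them, of which 7 had a RUNX2 start peak, 8 an MTA1 start peak and 7 both, to be read against the 52.1%, 53.9% and 46.9% of all genes. Of the 11 with a promoter of at least the median CpG count, 6, 7 and 6 did, beside 69.4%, 71.9% and 63.9% of such genes. No test was made of these counts.

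The repressors BHLHE40, BHLHE41 and CIART differed, and TIMELESS, which is not grouped with them, is given after them. BHLHE40, which competes with CLOCK and BMAL1, had strong start peaks, at ranks of 93.7 for RUNX2 and 92.8 for MTA1. Its paralog BHLHE41 had only an MTA1 peak at its start, rank 61.7, and its strongest peaks lay downstream at 71.1 and 91.1. CIART, another repressor of the heterodimer, had no start peak in either list and an upstream pair at ranks of 78.9 and 92.7, which lay on the start of another gene, APH1A. TIMELESS, best known from DNA replication, had start peaks at 60.9 and 44.1, and its strongest MTA1 peak lay upstream at 70.6.

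Among the bZIP genes that share D-boxes with DBP, TEF had start peaks at ranks of 93.9 for RUNX2 and 87.4 for MTA1, with its strongest MTA1 peak downstream at 91.4. NFIL3, the repressor at D-boxes, had weaker ones at 22.6 and 46.4, with its strongest peaks elsewhere at 88.0 and 73.3. HLF had no start peak and no MTA1 peak in its window, and its strongest RUNX2 peak had a rank of 29.3. The genes of this family thus ranged from strong shared start peaks to no peak of MTA1.

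The paralogs and receptors of the activating arm had no start peaks where a start was listed. NPAS2, which can replace CLOCK, had its strongest peaks inside the gene at ranks of 96.7 for RUNX2 and 87.6 for MTA1. BMAL2 had its strongest inside at 74.8 and 77.2. Of the receptors that activate BMAL1, RORA had its strongest peaks downstream at 92.0 and 57.3, on the start of ICE2 and near that of RORA-AS1, and RORB had RUNX2 peaks up to 67.5 and no MTA1 peak.

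Kinases and ubiquitin ligases act on the clock proteins. GSK3B had start peaks at ranks of 88.6 for RUNX2 and 95.8 for MTA1, with its strongest RUNX2 peak upstream at 89.5. CSNK1E had start peaks at 61.1 and 78.3 and its strongest inside at 98.2 and 90.9, and CSNK1D, with no listed start, reached 90.5 in the flank, on the start of LINC01970, and 95.8 inside the gene.

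FBXW11 had start peaks at 73.2 and 82.3, and its strongest RUNX2 peak, inside the gene, was at 75.8. BTRC, which encodes an F-box protein that marks PER for degradation, had no listed start, and its strongest peaks ranked 99.8 for RUNX2 and 99.6 for MTA1. The start peaks of TEF, NFIL3, BHLHE40 and GSK3B named above also lay within 1 kb of the start of a noncoding gene. The BTRC pair was the highest of all the clock-related genes in both lists.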

How the data were processed

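CUT&Tag libraries for RUNX2 and MTA1 were represented by the peak list the authors deposited for each, with a position and a score per peak; the scale of the score is not stated, so scores were used as ranks within a list. The submitters' processing notes name CASAVA 1.4, Bowtie 0.12.8, MACS and MACS2 and the build hg19. The listed positions run past the hg19 ends of chromosomes 18 and 20 in 131 RUNX2 and 104 MTA1 peaks, and were read as GRCh38. The labels and the methods name different antibody suppliers, and the labels describe end repair and adaptor ligation, which is unusual for CUT&Tag. Read depth is unknown, so a missing peak may be a weak signal.

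Peaks on chromosomes 1 to 22, X and Y (61700 RUNX2, 42683 MTA1) were joined to RefSeq GRCh38.p14 genes, and to starts in the promoter table, which covered 15842 protein-coding genes. Genes without a listed start were not used for start peaks. All 10 clock genes are named with all their peaks counted; a neighbour is named where its start lies within 1 kb of a peak in their windows, and each other clock gene by its start and strongest peak, except 2 that are not reported here. The genes and lists were chosen with earlier results of these data known. As a check of the cell line, the windows of CDKN2A and CDKN2B, which lie in a region known to be lost in MDA-MB-231, held 0 peaks of either list. Intervals are exact Clopper-Pearson; no p-value was computed, with 1 library per antibody. The steps that find peaks at starts and overlaps between lists were tested on simulated data, and the confidence intervals were not. The tools were matplotlib 3.10.9, scipy 1.17.1, pandas 2.3.3 and numpy 2.4.6 in Python 3.11.15.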

Additional observations from a re-analysis of the deposited data

How the results depend on the processing

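Of 64 alternative values, 49 stayed within 1.5 times the reported count or within the interval of the reported share. The number of peaks followed the window and the score limit: RUNX2 peaks numbered 92 within 50 kb, 30 in the gene alone, 36 at or above the median score and 11 among the 10000 highest-scoring peaks, and MTA1 peaks 78, 21, 30 and 16. With the 10000 highest-scoring peaks, 5 of the 10 genes kept a RUNX2 start peak (PER3, CRY1, CRY2, NR1D2 and DBP; 15.4% of genes), 5 an MTA1 start peak (PER3, CRY2, NR1D1, NR1D2 and DBP; 26.9% of genes) and 4 both. Of the other clock genes 3, 5 and 3 did. When overlapping peaks had to share 50% of each, 54.4% of the RUNX2 and 64.6% of the MTA1 peaks in the windows met the rule. No whole-list share is given for this rule, so these are not to be set against the whole-list shares for 1 bp. When peaks below the median score were dropped, 9 of the 10 genes kept a RUNX2 start peak, all but CLOCK, beside 39.5% of genes. An MTA1 start peak remained in 7, all but CLOCK, BMAL1 and PER1, beside 41.7% of genes, and 7 had both. Within 3 kb of a start, PER1 gained an MTA1 peak, so that 10 of 10 had both. A wider rule can only raise such counts, in all genes as well. No share of all genes is given for the 3 kb rule, nor for both peaks under the score limits. No replicate could be left out, since each antibody has 1 library. No paired analysis was possible either, since there are no replicates to pair. Unknown depth, an unstated score scale and the absence of a control from the analysis limit every comparison between the lists.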
